A study of Mus musculus with 4 samples.

Results

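GABAergic interneurons (GABANs) were chosen from the hippocampal cells of 1 mouse after 2VO and 2 sham mice by the levels of a few genes in each cell. A cell was taken when it had at least 650 detected genes and, per 10,000 unique molecular identifiers (UMIs, each counted as 1 captured transcript), at least 8 of *Gad1* and *Gad2* together. It also had under 4 of *Slc17a7*, under 20 of *Igfbpl1*, *Dcx* and *Sox11* together and under 40 of *Cldn5*, *Flt1* and *Ly6c1* together, which kept out glutamatergic, newly formed and endothelial cells. This left 89 cells, called interneurons below, among 14147 kept cells, with 20 in 2VO 1, 45 in sham 1 and 24 in sham 2. The hippocampi came from male C57BL/6 mice of 12 weeks by the labels, on the seventh day after surgery, and each library held the dissociated hippocampus of 1 mouse, read at the 3′ ends of its transcripts. In 2VO both common carotid arteries were clamped for a time and then released, while in sham surgery the clamps were taken off at once. The 2VO 2 library was not analysed here, so the 2VO group is 1 mouse, and surgery, mouse, dissociation and library cannot be told apart.

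Interneurons are the local inhibitory neurons of the hippocampus. They make GABA with the glutamate decarboxylases encoded by *Gad1* and *Gad2* and load it into vesicles with the transporter of *Slc32a1*. Those born in the medial ganglionic eminence carry the transcription factor gene *Lhx6* and include somatostatin (*Sst*), parvalbumin (*Pvalb*) and many neuropeptide Y (*Npy*) cells, and those born in the caudal ganglionic eminence include cholecystokinin (*Cck*) cells, which are rich in the cannabinoid receptor gene *Cnr1*, and *Vip* cells. Cannabinoids released by an active pyramidal neuron act on this receptor at the *Cck* terminals and lower the release of GABA.

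The interneurons were 0.511% of the kept cells in 2VO 1 (20 of 3912, 95% exact Clopper-Pearson interval 0.313 to 0.788), 0.881% in sham 1 (45 of 5109, 0.643 to 1.18) and 0.468% in sham 2 (24 of 5126, 0.300 to 0.696). The 2VO share lay between those of the sham mice, and its interval overlapped with both. This order turned with the limits, since 2VO 1 was highest with a *Gad* limit of 4 (1.25% against 1.10% and 0.819%) and lowest with 200 or more genes (0.653% against 1.01% and 0.894%) or among cells with a *Slc32a1* UMI (0.307% against 0.646% and 0.371%). The *Gad1* and *Gad2* limit alone took 23, 56 and 29 cells of 2VO 1, sham 1 and sham 2. Of the 3 cells that another limit then removed from 2VO 1, all were over the endothelial one, whereas 8 of the 11 removed from sham 1 were over that for *Igfbpl1*, *Dcx* and *Sox11*. The cells just inside the *Gad* limit had 8.002, 8.055 and 8.15 UMIs per 10,000, and those just outside 7.862, 7.831 and 7.825.

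Depth differed between the libraries. The interneurons had a median of 2401 UMIs in 2VO 1, 6524 in sham 1 and 3378.5 in sham 2, and held 73286, 394522 and 217250 UMIs in all. The deepest cell gave 22.5% of the interneuron UMIs of 2VO 1, 8.24% of those of sham 1 and 23.4% of those of sham 2. In 2VO 1, 3 cells passed on a single *Gad* UMI, against 2 in sham 1 and 0 in sham 2. Between 12 and 15 cell barcodes were shared by each pair of libraries, and 1 of them, shared by 2VO 1 and sham 1, belonged to an interneuron.

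The genes of GABA handling were found in all libraries. Both *Gad* genes chose the cells, so their levels are a description. *Gad1* had 20.5 UMIs per 10,000 in the summed cells of 2VO 1, 17.6 in sham 1 and 9.53 in sham 2, and *Gad2* had 20.6 in 2VO 1, 15.7 in sham 1 and 10.5 in sham 2. *Slc32a1*, the vesicular GABA transporter, which the rule did not use, stood at 4.23 in 2VO 1, 4.08 in sham 1 and 4.60 in sham 2, the most even of the 3 genes. *Abat*, which breaks GABA down, differed more, with 7.64 in 2VO 1 against 1.72 in sham 1 and 1.84 in sham 2, and did not pass the test (adjusted p = 0.974 by the quasi-likelihood test of edgeR, here and for each adjusted p of 2VO over sham below).

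**Figure D1:**
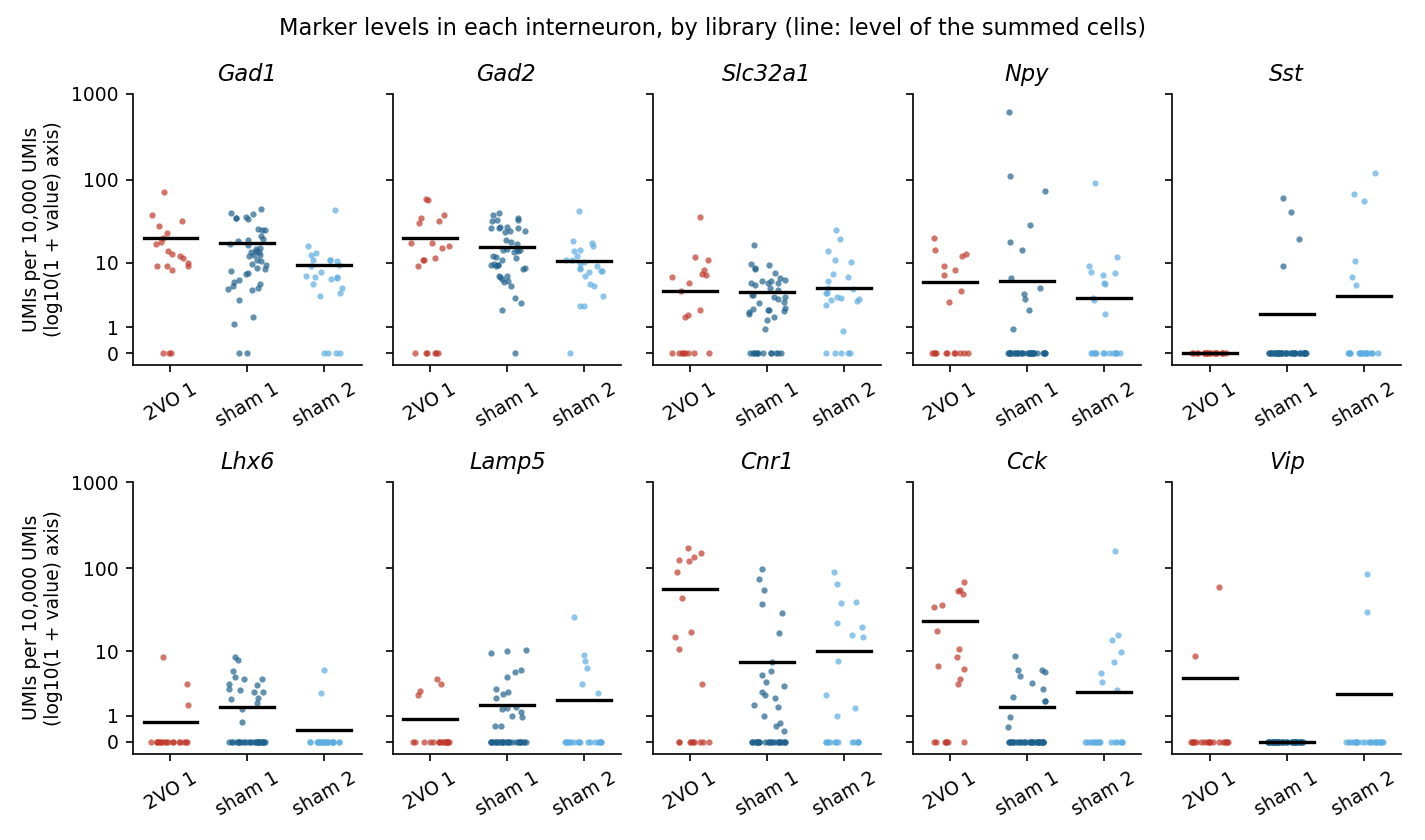
Levels of 10 marker genes in each interneuron (points) as UMIs per 10,000 UMIs of the cell on a log10(1 + value) axis, for 2VO 1 (20 cells), sham 1 (45 cells) and sham 2 (24 cells), with the level of the summed cells as a line. *Slc32a1* lies between 4.08 and 4.60 in all libraries, *Sst* has no UMI in 2VO 1, and *Cnr1* and *Cck* are highest in 2VO 1.

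The vesicular transporter gene was missing from some of the chosen cells. At least 1 UMI of *Slc32a1* was present in 12 of 20 interneurons of 2VO 1, in 33 of 45 of sham 1 and in 19 of 24 of sham 2, and in 0%, 0.175% and 0.086% of their oligodendrocytes. After thinning to 1000 UMIs per cell it was in 21.1%, 25% and 37.5% of interneurons, against 60%, 73.3% and 79.2% before. The 8 cells of 2VO 1 without one had 1010 to 3458 UMIs, and all 8 had glial and endothelial markers at 20 or more per 10,000, against 4 of 12 such cells in sham 1 and 1 of 5 in sham 2. These markers, summed over oligodendrocytes, oligodendrocyte precursors, astrocytes, microglia and endothelial cells, reached that level in 17 of 20 interneurons of 2VO 1, in 8 of 45 of sham 1 and in 3 of 24 of sham 2. The 8 oligodendrocyte markers summed to 88.7 UMIs per 10,000 in 2VO 1, against 4.13 in sham 1 and 2.16 in sham 2, and the 7 microglial markers to 12.8, against 0.406 and 1.24. Other neurons of the same library showed the same, with 61.6 for oligodendrocyte markers in *Slc17a7* neurons of 2VO 1 against 4.48 and 11.9 in those of sham 1 and sham 2. The 6 glutamatergic markers, which include *Slc17a7* of the rule, summed to 1.23, 3.85 and 3.41 per 10,000 in interneurons of 2VO 1, sham 1 and sham 2, against 33.8, 63.9 and 81.2 in *Slc17a7* neurons, and *Slc17a6*, which the rule did not use, was at 0 in all 89 cells. The 5 Cajal-Retzius markers summed to 2.05, 3.37 and 6.90, and 5 cells of sham 2 had them at 20 or more, but this list holds *Reln* and *Ndnf*, which interneurons also express, while *Trp73* and *Lhx1* were at 0 in all 89 cells and *Lhx5* in those of 2VO 1. The 6 striatal markers summed to 0, 0.735 and 0.23. The label thus has no *Slc32a1* UMI behind it in 25 of the 89 cells, 8 of them in 2VO 1. Among these 8 were cells with oligodendrocyte markers at 582, 792 and 463 per 10,000, against a median of 468 in oligodendrocytes of 2VO 1. Another had microglial markers at 279, and another precursor markers at 129. All of these had 1 to 3 *Gad1* UMIs and no *Gad2* or *Snap25* UMI, which goes against the name interneuron for them. The rule keeps them among the 20 cells of 2VO 1.

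**Figure D2:**
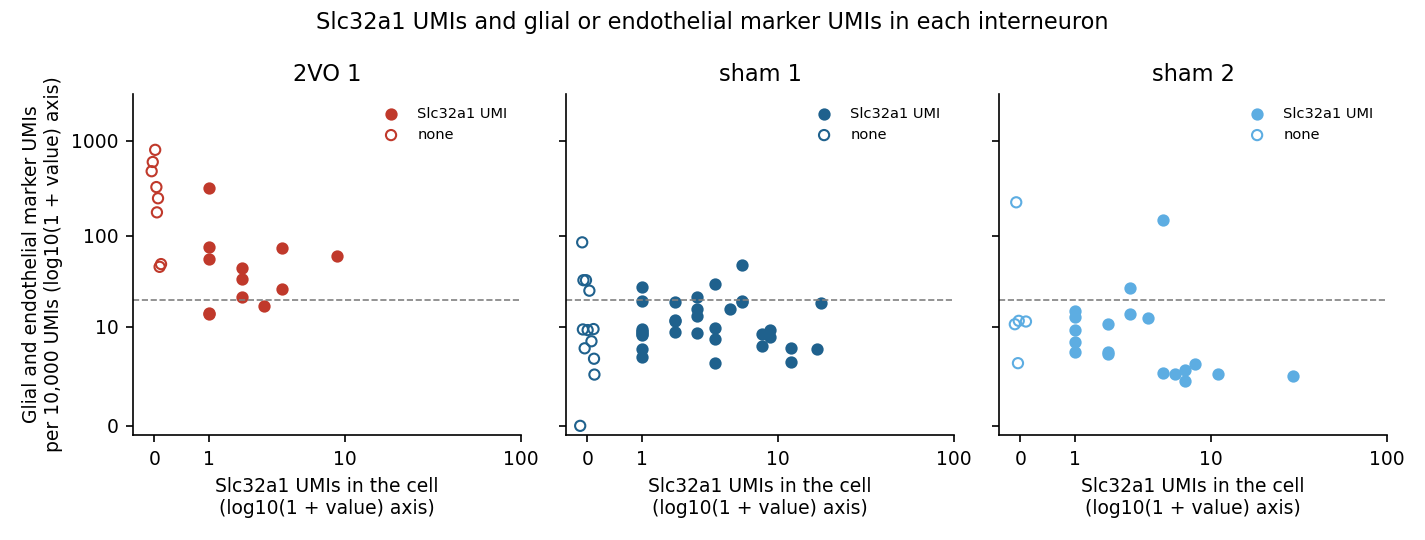
Each point is an interneuron of 2VO 1, sham 1 or sham 2, with its UMIs of *Slc32a1* on the x axis and the UMIs per 10,000 of glial and endothelial markers on the y axis, both on log10(1 + value) axes, and open points have no *Slc32a1* UMI. The dashed line is 20 per 10,000, and 17 of 20 cells of 2VO 1 lie above it, against 8 of 45 in sham 1 and 3 of 24 in sham 2.

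Peptide genes tell many interneuron subtypes apart. The stretches of 120 bases before the RefSeq start of these genes (GRCm38.p6) are shown because *Sst* had no UMI in 2VO 1, *Cck* was highest there and *Npy* lay between the sham mice. They lie at chr16:23890845-23890964 on the minus strand for *Sst*, chr6:49822590-49822709 on the plus strand for *Npy* and chr9:121495695-121495814 on the minus strand for *Cck*. Capitals mark a cAMP response element in *Sst*, TGACGTCA, and the variant TGCGTCA in *Cck*, and neither was found in the *Npy* stretch on either strand.
Sst: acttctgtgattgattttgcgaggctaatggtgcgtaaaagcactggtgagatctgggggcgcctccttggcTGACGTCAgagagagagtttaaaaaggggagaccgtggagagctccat
Npy: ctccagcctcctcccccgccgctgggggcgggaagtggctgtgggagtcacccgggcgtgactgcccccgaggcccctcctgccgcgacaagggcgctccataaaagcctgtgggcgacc
Cck: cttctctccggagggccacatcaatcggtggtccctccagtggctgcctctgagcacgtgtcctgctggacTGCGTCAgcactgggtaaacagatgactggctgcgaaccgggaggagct
The full element was in 508 of 32851 windows of 250 bases before RefSeq starts (1.546%) and the variant, read on both strands, in 574 (1.747%). They do not overlap each other, and a match describes the letters only.

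*Sst*, the somatostatin gene of dendrite-inhibiting cells, had 0 UMIs in the 20 interneurons of 2VO 1, 73 UMIs in 4 cells of sham 1 and 77 UMIs in 6 cells of sham 2. With UMIs taken as independent, a sum of 0 allows up to 3 counts. The *Sst* level in 2VO 1 was then at least 4.52-fold lower than in sham 1 and at least 8.66-fold lower than in sham 2. The sham UMIs lay in few cells, however, and 0 of 20 cells allows a share of up to 15% with a UMI. The share was 8.89% in sham 1 and 25% in sham 2. Counted by cells, a lower share than in sham 1 is thus not established. The share of sham 2 rests on 6 of 24 cells, and 8 of the 20 cells of 2VO 1 had no *Slc32a1* UMI. A lower share than in sham 2 is therefore not established either. *Sst* was not called (adjusted p = 0.104). Oligodendrocytes, which should lack the gene, had a UMI in 0.143% of cells in 2VO 1 (median depth 2172 UMIs), 0.934% in sham 1 (11693) and 0.86% in sham 2 (8047). Of the 10 *Sst* cells, 5 also had an *Npy* UMI and 6 a *Reln* UMI. *Cort*, a peptide related to somatostatin, likewise had 0 UMIs in 2VO 1, against 32 in sham 1 and 16 in sham 2.

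*Npy* was present in every library. It had 41 UMIs in 9 of 20 cells of 2VO 1, 228 in 12 of 45 cells of sham 1 and 72 in 11 of 24 cells of sham 2, or 5.59, 5.78 and 3.31 per 10,000. The log2 difference of 2VO over sham was 0.16 ± 1.11 (SE, adjusted p = 0.986), and it had the other sign with other cell limits. *Npy* overlapped with *Lamp5*, a marker of neurogliaform and ivy cells, in 4 cells of 2VO 1, 6 of sham 1 and 6 of sham 2, and no *Lamp5* cell of 2VO 1 or sham 2 lacked *Npy*, whereas 12 of the 18 of sham 1 did.

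*Lhx6*, the transcription factor gene of the medial lineage, was found in 3 of 20 cells of 2VO 1, 17 of 45 of sham 1 and 2 of 24 of sham 2. The level was 0.682, 1.50 and 0.368 UMIs per 10,000, so that 2VO 1 lay between the sham mice (log2 difference −0.58 ± 0.95, SE, adjusted p = 0.974). Thinned to 1000 UMIs, 5.26% of cells had *Lhx6* in 2VO 1, 11.4% in sham 1 and 4.17% in sham 2. All 3 *Lhx6* cells of 2VO 1 also held *Lamp5*, as did 12 of the 17 of sham 1 and both of sham 2, and *Lamp5* was also in all 3 cells of 2VO 1 with *Nos1*, the neuronal nitric oxide synthase gene, in 11 of 16 of sham 1 and in 3 of 7 of sham 2. *Adarb2*, a gene of the caudal lineage, shared a cell with *Lhx6* in 0, 2 and 1 cells of 2VO 1, sham 1 and sham 2. *Pvalb* had 0 UMIs in 2VO 1, 0 in sham 1 and 5 in sham 2, and these 5 were in 3 cells. *Vip* was carried by 2 cells of 2VO 1 with 28 and 4 UMIs and by 2 of sham 2 with 47 and 8, all with *Cnr1*, and by no cell of sham 1.

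*Cnr1* and *Cck* had higher levels in 2VO 1 than in both sham mice. *Cnr1* had 419 UMIs in 11 of 20 cells of 2VO 1, 287 in 20 of 45 cells of sham 1 and 220 in 12 of 24 cells of sham 2, which is 57.2, 7.27 and 10.1 per 10,000. *Cck* had 174 UMIs in 13 cells of 2VO 1, 59 in 12 cells of sham 1 and 60 in 8 cells of sham 2, or 23.7, 1.50 and 2.76 per 10,000. The log2 difference of 2VO over sham was 2.51 ± 1.20 for *Cnr1* (SE, adjusted p = 0.968) and 3.26 ± 1.15 for *Cck* (adjusted p = 0.373), and neither passed the test. After each cell was thinned to 1000 UMIs, which left out 1 cell each of 2VO 1 and sham 1, the share of interneurons with a *Cnr1* UMI was 52.6% in 2VO 1, 20.5% in sham 1 and 25% in sham 2, against 55%, 44.4% and 50% before. In oligodendrocytes it was 0.929%, 1.34% and 1.03% before thinning.

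The high levels of 2VO 1 lay in a few cells. *Cnr1* was at 20 or more per 10,000 in 7 of 20 interneurons of 2VO 1, in 5 of 45 of sham 1 and in 6 of 24 of sham 2, of which 2 in sham 2 were close to that limit at 20.02 and 22.41. The 7 cells of 2VO 1 held 95.9% of its *Cnr1* UMIs and 91.4% of its *Cck* UMIs, and 31587 of its 73286 interneuron UMIs over all genes. Each of the 7 had at least 2 *Cck* UMIs, against 2 of 5 such cells in sham 1 and 3 of 6 in sham 2. Their *Cck* UMIs were 0.263 to 0.452 of their *Cnr1* UMIs, a narrow range over cells of 1097 to 16480 UMIs, while the ratio was 0 to 0.0769 in sham 1 and 0 to 4 in sham 2. Summed over these cells, 100 *Cnr1* UMIs went with 39.6 *Cck* UMIs in 2VO 1, 2.45 in sham 1 and 18.7 in sham 2.

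**Figure D3:**
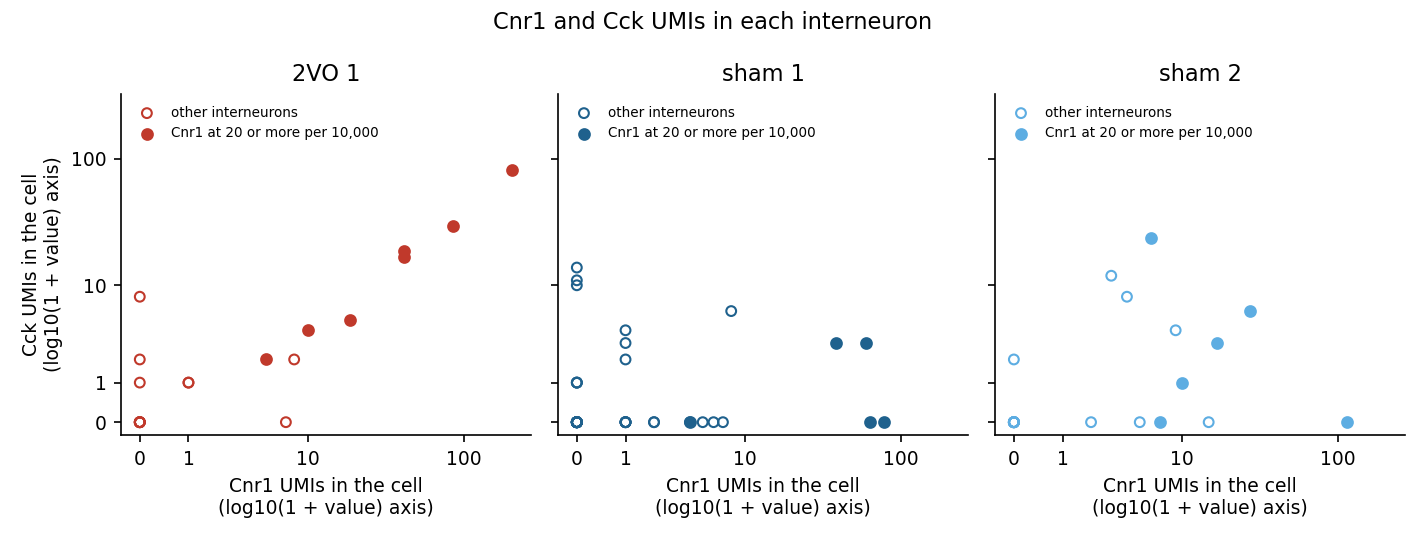
Each point is an interneuron of 2VO 1, sham 1 or sham 2, with its *Cnr1* UMIs on the x axis and its *Cck* UMIs on the y axis, both on log10(1 + value) axes, and filled points have *Cnr1* at 20 or more per 10,000. The 7 filled points of 2VO 1 lie along 1 line, and those of sham 1 have 0 to 3 *Cck* UMIs.

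Other genes were shared by only part of the cells rich in *Cnr1*, whose depth ranged over 1068 to 50879 UMIs. *Npas1*, a transcription factor gene of caudal interneurons, was found in 7 of 7 such cells of 2VO 1, 4 of 5 of sham 1 and 2 of 6 of sham 2. *Cadps2*, which takes part in the release of dense-core vesicles, was found in 7 of 7, 5 of 5 and 1 of 6. *Yjefn3* had a UMI in 7 of 7 cells of 2VO 1, 1 of 5 of sham 1 and 3 of 6 of sham 2. *Adarb2* had 32 UMIs in the *Cnr1* cells of 2VO 1, 116 in those of sham 1 and 8 in those of sham 2, in 3 of 7, 5 of 5 and 3 of 6 cells, so that the sham mice differed most from each other. An *Npy* UMI was in 5 of the 7 cells of 2VO 1, in 0 of 5 of sham 1 and in 1 of 6 of sham 2. With so few cells of 1 mouse, a change within a kind of cell and a different draw of kinds cannot be told apart.

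Across all genes, 26 of 6089 tested genes (0.427%) were called higher in interneurons of 2VO 1 than of sham with the threshold set at 0.05 for the adjusted p and 1.5 for the fold, and 0 (0%) were called lower. At an unadjusted p under 0.05, 121 were higher and 168 lower, and DESeq2 called 7 higher and 0 lower. With a single 2VO library, the test takes the spread between the sham mice for both groups. Many of the calls were genes of glia. *Trf*, *Mal*, *Ptgds* and *Car2*, all strongly expressed in oligodendrocytes, had a log2 difference of 5.29 ± 1.00 (SE, adjusted p = 0.000143), 4.66 ± 1.01 (0.00244), 4.93 ± 1.22 (0.0193) and 3.69 ± 0.92 (0.0209). *Trf*, the transferrin gene, had 48 UMIs in 2VO 1, 9 in sham 1 and 1 in sham 2, and 70.8% of those of 2VO 1 were in the 8 cells without *Slc32a1*.

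Of the 26 genes, 13 were markers of another cell type, and 17 had over 50% of their 2VO UMIs in those 8 cells. Over all genes, the other 12 cells held 57876 of the 73286 interneuron UMIs of 2VO 1. They included 7 oligodendrocyte markers, the microglial complement genes *C1qa*, *C1qb* and *C1qc*, the precursor genes *Pdgfra* and *Cspg4* and the red cell gene *Hbb-bs*. No tested astrocyte or endothelial marker was called, but the rule itself limited *Cldn5*, *Flt1* and *Ly6c1*. Several called markers, among them *Hbb-bs* and *C1qc*, passed the filter on low counts only through 2VO 1. No share of these lists is therefore given, and the cell types are not compared. When only interneurons with a *Slc32a1* UMI were summed, 7 of the 26 were still called, among them *Trf*, *Ptgds* and *Gatm*. Without the interneurons richest in markers of other cell types, 3 genes were called, of which 2 were among the 26. These 2 were the microglial gene *C1qb* and the precursor gene *Pdgfra*. This setting kept 15 interneurons of 2VO 1, so that cells with glial markers remained among them. Without the 5 sham cells that carry *Hmx3* or *Six3*, 16 of the 26 were called. The same number was called without the 1 interneuron that was marked as a doublet, which is the deepest of sham 1, with 32491 UMIs, and itself 1 of these 5 cells, so that these checks overlap. Choroid plexus markers were also higher, at 28.4 UMIs per 10,000 in 2VO 1, 14.1 in sham 1 and 7.69 in sham 2, and red cell markers at 3.14, 0 and 0.322, and the part of such RNA in the calls was not tested.

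A further 5 calls had over 50% of their 2VO UMIs in the *Cnr1* cells. Over all genes, these 7 cells held 31587 of the 73286 interneuron UMIs of 2VO 1. The *Cnr1* cells of sham 1 and sham 2 held 41957 of 394522 and 64631 of 217250. *Stk32c*, a kinase gene, had 31 UMIs in 2VO 1, 18 in sham 1 and 5 in sham 2 (log2 difference 3.44 ± 0.88, SE, adjusted p = 0.0303). *Yjefn3* had 44, 10 and 13 UMIs (3.65 ± 0.95, adjusted p = 0.0317), and *Kctd12*, an auxiliary subunit of GABA-B receptors, had 54, 17 and 12 (3.73 ± 0.97, adjusted p = 0.0317). 2VO 1 lay above both sham mice per 10,000 UMIs for each. Of their 2VO UMIs, 93.5%, 100% and 90.7% were in the 7 *Cnr1* cells, as were 96.0% for *Trp53i11* and 88.9% for *Slc22a23*, also called. Most of these calls held in cells with a *Slc32a1* UMI, as 6 of the 7 cells have, where all but *Slc22a23* were still called (adjusted p = 0.0433 for *Stk32c*, *Yjefn3* and *Kctd12*), whereas *Stk32c* was not called without the deepest cell of each library. *Stk32c*, *Yjefn3* and *Kctd12* were not called with DESeq2, without the doublet or without the *Hmx3* or *Six3* cells, and none of the 5 was called without the cells richest in other markers.

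**Figure D4:**
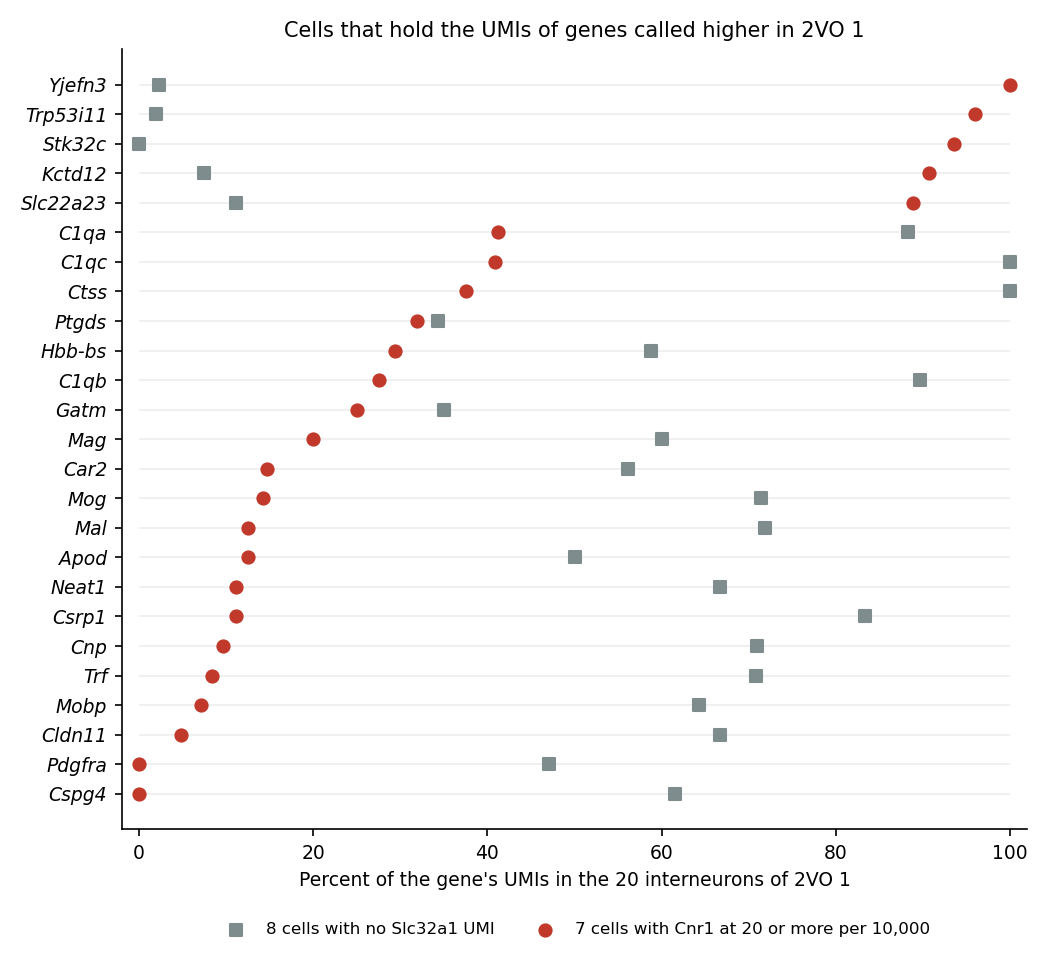
For genes called higher in 2VO 1, the share of each gene's UMIs in the 20 interneurons of 2VO 1 that lies in the 8 cells with no *Slc32a1* UMI (squares) and in the 7 cells with *Cnr1* at 20 or more per 10,000 (circles); 1 cell belongs to both. For 5 genes, from *Yjefn3* at 100% to *Slc22a23* at 88.9%, the UMIs lie in the *Cnr1* cells, and for *Trf* 70.8% lie in the cells without *Slc32a1*. Over all genes, the *Cnr1* cells held 31587 of 73286 UMIs.

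No gene of 15 lists of neuronal and stress genes was called, among 223 distinct tested genes, of which 5 were higher and 8 lower at an unadjusted p under 0.05, and DESeq2 called 0. The median log2 difference over all tested genes was −0.13. GABA receptors had a median of −0.12 (13 tested). For the list of GABA synthesis, loading and uptake no median is given, since it falls on *Gad1* and *Gad2*, which chose the cells. The caudal lineage stood at 0.76 (14 tested, 10 above 0) and the medial at −0.83 (9 tested, 6 below 0), or −0.58 with its genes at 0 UMIs set to their bound. For neuropeptides and other secreted proteins the median was −1.30 (10 tested), or −0.94 at the bound. Shared regulators were at −0.11 (6 tested), endocannabinoid genes at 0.55 (5), synaptic vesicle genes at 0.14 (17), ion channels of firing at 0.58 (16), immediate early genes at 0.35 (9), heat shock genes at −0.10 (12) and mitochondrial transcripts at 0.23 (12). Glutamate receptors were below 0 in 11 of 12 genes, with a median of −0.82. Ribosomal protein genes were below 0 in 81 of 83, with a median of −1.49.

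Within the lists, *Kcnq3*, a subunit of the M-type potassium channel, was at 3.14 UMIs per 10,000 in 2VO 1 against 0.355 in sham 1 and 0.46 in sham 2 (adjusted p = 0.16). *Npas1* was at 5.19 against 0.456 and 0.921 (log2 difference 2.72 ± 0.92, SE, adjusted p = 0.331), a difference that passed without the deepest cell of each library (adjusted p = 0.00742) and with a *Gad* limit of 16 (0.00409), the lowest of its alternatives, of which the highest was 0.882 with DESeq2. *Gabra4*, a GABA-A receptor subunit gene, had 0 UMIs in 2VO 1, 45 in sham 1 and 7 in sham 2. With UMIs taken as independent, it was at least 2.79-fold lower than in sham 1. The level of sham 2 lay under the limit that 0 UMIs in 2VO 1 allow. The genes with the smallest p below sham were *Sst* and 3 others with 0 UMIs in 2VO 1. These were *Tceal3* (adjusted p = 0.0889), *Bex4* (adjusted p = 0.14) and *Dlk1* (adjusted p = 0.137). In sham 1 and sham 2 they had 95 and 89, 44 and 55, and 10 and 74 UMIs. With UMIs taken as independent, *Tceal3* was at least 5.88-fold and 10.01-fold lower in 2VO 1 than in sham 1 and sham 2. In *Slc17a7* neurons of 2VO 1, *Tceal3* and *Bex4* were lower too, at 0.885 UMIs per 10,000 against 2.08 and 3.22, and 0.364 against 0.685 and 0.515. *Dlk1* was higher there, at 0.364 against 0.0285 and 0.0682. In immature neurons of 2VO 1, *Tceal3* had 0 UMIs and *Bex4* had 1, against 81 and 43, and 158 and 69, in sham 1 and sham 2.

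The ribosomal-RNA-associated transcripts depended on the sham mouse. *Lars2*, a mitochondrial leucyl-tRNA synthetase gene, had 12.6 UMIs per 10,000 in 2VO 1, 8.998 in sham 1 and 30.1 in sham 2, and *Gm42418* had 139, 88.0 and 688. AY036118 had 8.46, 3.498 and 13.8. 2VO 1 was thus above sham 1 and below sham 2 for all 3, and the log2 differences of −0.91 ± 1.29, −1.80 ± 1.35 and −0.31 ± 1.21 (SE, adjusted p = 0.974, 0.974 and 0.982) turned positive without sham 2. The vesicle fusion gene *Snap25* was even, at 9.42 in 2VO 1, 9.48 in sham 1 and 9.11 in sham 2 (log2 difference −0.16 ± 1.20, adjusted p = 0.986, with the other sign in cells with a *Slc32a1* UMI), and *Sncb*, beta-synuclein, was at 6.69, 3.37 and 10.4 (−0.30 ± 1.18, adjusted p = 0.982).

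Interneurons were next set against the 306 cells with *Slc17a7* at 4 or more per 10,000 and little *Gad* (49 in 2VO 1, 42 in sham 1, 215 in sham 2). Since both groups of cells were drawn by genes measured in them, the counts describe these cells, the genes of the rule are left out, and no p is given. Of 5838 genes, 355 (6.08%) were called higher and 403 (6.9%) lower in interneurons, with the library as a block. Several GABA and regulator genes passed the filter on low counts only through the interneurons, so that no count of those lists is given. *Dlx6os1*, a long noncoding RNA at the *Dlx* homeobox genes, had 4.64, 5.07 and 2.72 UMIs per 10,000 in interneurons of 2VO 1, sham 1 and sham 2, and 0 UMIs in *Slc17a7* neurons of all 3. The receptor gene *Erbb4* had 6.00, 8.39 and 4.05 against 0.104, 0 and 0. *Pnoc*, the prepronociceptin gene, had 0.682, 2.13 and 5.06 against 0, 0 and 0.00758, and *Igf1* had 3.82, 1.47 and 1.57 against 0, 0.0285 and 0. *Hapln1*, a link protein of perineuronal nets, had 4.23, 4.99 and 1.98 against 0, 0.0285 and 0.0227.

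Firing genes divided into 4 higher, among them the fast potassium channel genes *Kcnc1* and *Kcnc2* and the sodium channel gene *Scn1a*, and 6 lower, among them *Kcnq3*. Glutamate receptor genes *Grik1* and *Gria4* were higher, and *Gria2*, *Gria3*, *Grin2a* and *Grin2b* were lower. The glutamatergic marker *Nrgn* was at 0, 0.304 and 2.16 in interneurons against 13.5, 34.2 and 56.0 in *Slc17a7* neurons. *Neurod6*, with 0, 0 and 1 UMI in interneurons, passed the filter on low counts only through the *Slc17a7* neurons. No count of the glutamatergic markers is therefore given. *C1ql3* (0, 0.0507 and 0.046 against 6.98, 12.0 and 5.13) and *Itpka* (0, 0.0253 and 0 against 1.51, 5.08 and 5.30) were also among the lower genes.

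Against 245 immature neurons, with *Igfbpl1*, *Dcx* and *Sox11* together at 20 or more per 10,000, 936 of 5973 genes (15.7%) were higher and 670 (11.2%) lower in interneurons. The higher genes included 14 of 16 synaptic vesicle genes, 13 of 16 ion channels of firing, 8 of 10 GABA receptors and 8 of 10 glutamate receptors. These counts cover the genes that passed the filter on low counts, some of them through the interneurons alone. *Vstm2a* had 5.87, 7.35 and 4.05 UMIs per 10,000 in interneurons of 2VO 1, sham 1 and sham 2 against 0.234, 0.0101 and 0 in immature neurons. Ribosomal protein genes were lower in 50 of 83. The transcription factor genes *Neurod1* (0, 0.0253 and 0 against 3.97, 7.67 and 8.09) and *Sox4* (0.409, 0.608 and 0.184 against 11.5, 18.6 and 16.9) were lower as well, and of the caudal list *Calb2* and *Prox1* were lower, which granule cells also express.

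Whether 2VO changed interneurons in another way than *Slc17a7* neurons was tested with an interaction term over the summed counts of both. Of 8457 genes, 5 (0.0591%) had a higher and 8 (0.0946%) a lower 2VO over sham change in interneurons. *Cck* went opposite ways, with 23.7 UMIs per 10,000 in interneurons of 2VO 1 against 1.50 and 2.76 in those of sham 1 and sham 2, and 2.81 in *Slc17a7* neurons of 2VO 1 against 12.2 and 14.9. The difference of the changes was 5.79 ± 1.07 on the log2 scale (SE, adjusted p = 0.000286), and it was the 1 gene that DESeq2 called too (adjusted p = 1.94e-09). Other genes of the *Slc17a7* neurons moved with its lower level there, since their glutamatergic markers summed to 33.8 per 10,000 in 2VO 1 against 63.9 and 81.2, their oligodendrocyte markers to 61.6 against 4.48 and 11.9 and their choroid plexus markers to 64.7 against 11.2 and 7.45, and the part of these in the *Cck* difference was not tested. It held without the deepest cell of each library (adjusted p = 0.000764), in cells with a *Slc32a1* UMI (0.00013) and without the *Hmx3* or *Six3* cells (0.00793). *Yjefn3*, *Stk32c*, *Cadps2* and *Calb1* were likewise higher in interneurons of 2VO 1 than in those of both sham mice, and their differences were 5.09 ± 1.06 (adjusted p = 0.00276), 4.22 ± 0.90 (0.0035), 3.74 ± 0.85 (0.0102) and 3.42 ± 0.84 (0.0354). *Stk32c* lost its call without the deepest cell of each library (adjusted p = 0.322), as did *Cadps2* (0.0705) and *Calb1* (0.153) without the *Hmx3* or *Six3* cells.

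**Figure D5:**
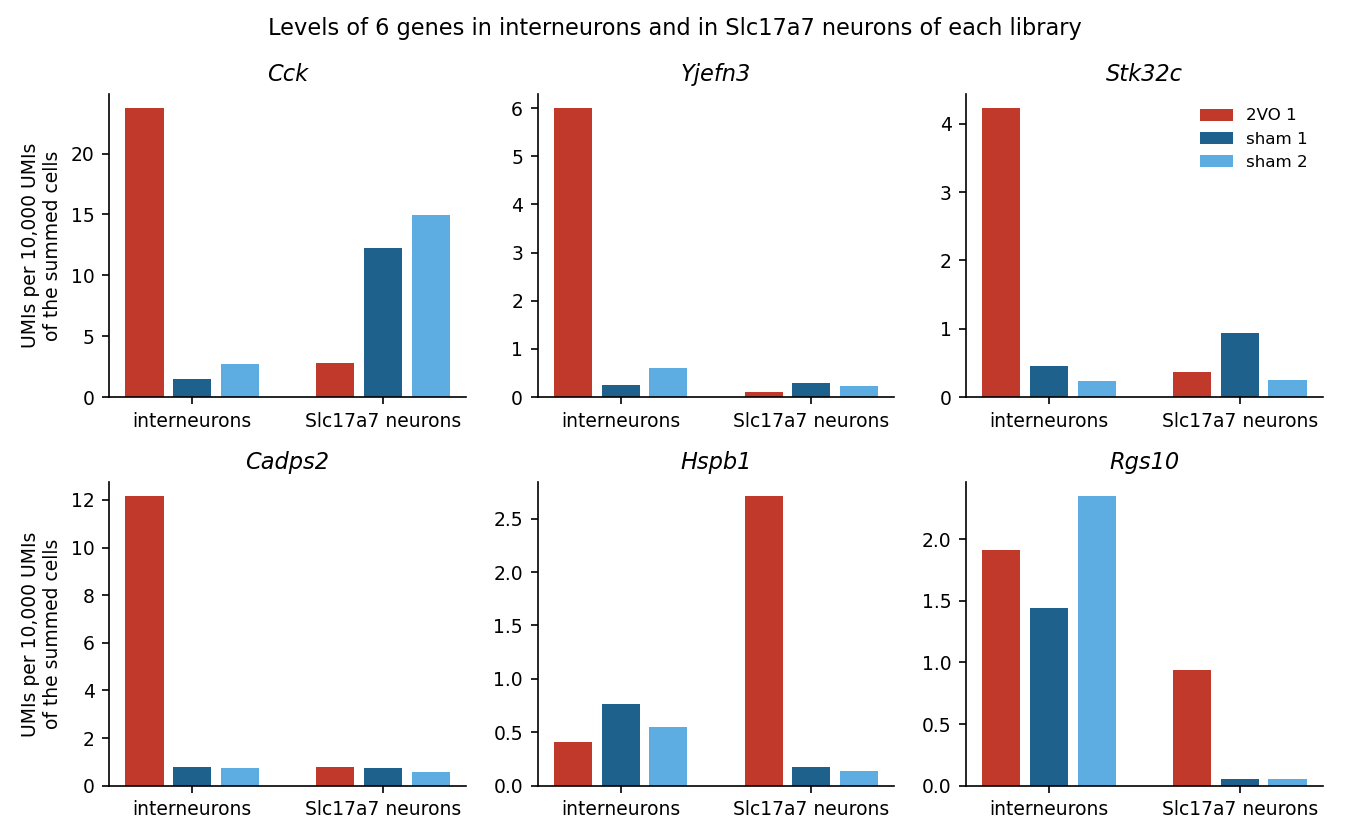
UMIs per 10,000 UMIs of the summed cells for 6 genes in interneurons (left bars) and *Slc17a7* neurons (right bars), with 1 bar for each of 2VO 1, sham 1 and sham 2 and no error bar, since each is 1 library. *Cck* is 23.7 in interneurons of 2VO 1 and 2.81 in its *Slc17a7* neurons, while in sham mice it is 1.50 and 2.76 in interneurons and 12.2 and 14.9 in *Slc17a7* neurons.

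All 8 genes with a lower difference were higher in *Slc17a7* neurons of 2VO 1 than in those of both sham mice. The small heat shock protein gene *Hspb1* had 0.409 UMIs per 10,000 in interneurons of 2VO 1 against 0.76 and 0.552 in those of sham 1 and sham 2, and 2.71 against 0.171 and 0.136 in *Slc17a7* neurons (difference −4.78 ± 0.99, SE, adjusted p = 0.00276). *Rgs10*, a regulator of G-protein signals, had 1.91 against 1.44 and 2.35 in interneurons and 0.937 against 0.0571 and 0.053 in *Slc17a7* neurons (−4.15 ± 0.94, adjusted p = 0.0102). The immediate early gene *Fos* had 4.64 against 1.65 and 7.32 in interneurons and 4.89 against 0.114 and 0.599 in *Slc17a7* neurons (−3.74 ± 0.88, adjusted p = 0.0164), and its call was lost without the *Hmx3* or *Six3* cells (adjusted p = 0.995). Microglial markers summed to 23.6 per 10,000 in *Slc17a7* neurons of 2VO 1 against 0.428 and 0.758 in sham, and their part in these differences was not tested. Against immature neurons, 0 of 8786 genes (0% in each direction) had a different change by edgeR, with 201 higher and 186 lower at an unadjusted p under 0.05, and DESeq2 called 0.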

How the data were processed

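Reads were mapped by the authors to mouse GRCm38 using Cell Ranger (mm10 in the submitters' notes, which also name Seurat 3.2.2), and they deposited raw UMI counts per gene and barcode, from which everything here was computed. Whether depth was equalized when libraries were aggregated is not given in the sources used here. Cells were chosen by the limits stated in the text. The members, gene lists and tests were chosen with earlier results of these data known.

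Counts of the chosen cells were summed per library, and edgeR 4.0.16 was run on the sums with its quasi-likelihood test (TMM factors, default filter on low counts, Benjamini-Hochberg adjustment over all tested genes), with DESeq2 1.42.0 as an alternative. An adjusted p under 0.05 with a fold over 1.5 was called. The SE printed with a log2 difference is the size of that difference divided by the square root of the F statistic. It is thus an approximation. Levels are UMIs per 10,000 UMIs of the summed cells. With 2 libraries against 1, no value was tested by permutation, and p-values measure the spread between 2 mice. Scrublet (scanpy 1.11.5) set its own threshold so high in 2VO 1 (1 cell marked, against 102 and 132) that the top 2.5% of scores per library were removed instead, in an alternative only. Intervals are exact Clopper-Pearson and, like the limit of 3 counts for a count of 0, cover counting error only. That limit also takes the UMIs of a cell as independent. The tests were tried on simulated data with known changes and a spread fixed in advance rather than taken from these mice. For 2VO over sham, 0 of 67 genes with a simulated log2 change of 1 in size were called. At a size of 2 it was 17 of 67, and at 3 it was 37 of 66. A gene that was not called in 2VO over sham may thus still differ.

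Genes were named by rule: the markers given for the cell type, 5 genes the paper gives for GABANs, of the called genes with at least 50 UMIs and 2VO 1 beyond both sham mice the 8 with the smallest p (the 4 with the smallest p where fewer than 4 were called), 2 genes of each list, and 8 in each direction against other neurons; part of them are printed. Genes of the subtype, synthesis and regulator lists were named for their levels. *Cort*, *Trp53i11*, *Slc22a23*, *Apod*, *Gatm*, *Cadps2*, the limit of 20 per 10,000 for *Cnr1*, the *Hmx3* or *Six3* cells and the genes of the interaction test were picked out after their values had been seen. Some genes are not reported here.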

Additional observations from a re-analysis of the deposited data

Results flagged for a closer look

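In 13 genes, the 2VO over sham change differed between interneurons and *Slc17a7* neurons by the interaction term of edgeR. The adjusted p was 0.000286 for *Cck*, 0.00276 for *Yjefn3* and for *Hspb1*, 0.0035 for *Stk32c*, 0.0102 for *Cadps2* and for *Rgs10*, 0.0164 for *Fos* and 0.0354 for *Calb1*, and all of these had UMIs in every library of both kinds of neuron. *Calb1*, the calbindin gene, had 3.41 UMIs per 10,000 in interneurons of 2VO 1 against 0.684 in sham 1 and 0.046 in sham 2, and 1.20 against 1.598 and 1.01 in *Slc17a7* neurons, and its call was lost without the deepest cell of each library (adjusted p = 0.623). The synaptic vesicle gene *Sv2c* (adjusted p = 0.043) had 1 UMI in interneurons of 2VO 1, against 25 and 19 in those of sham 1 and sham 2, and was not called in cells with a *Slc32a1* UMI (adjusted p = 0.111).

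The other 4 genes had 0 UMIs in interneurons of 2VO 1, so that no size is given. *Gm26870* (adjusted p = 2.77e-06) had 4 and 33 UMIs in interneurons of sham 1 and sham 2, and 164 in *Slc17a7* neurons of 2VO 1 against 2 and 79. *Dlk1* (adjusted p = 0.000349) had 10 and 74 in sham interneurons, and *Cxcl12* (0.0102) had 24 and 1. *Id3* (0.0354) had 24 and 17 UMIs in interneurons of sham 1 and sham 2, and was not called without the deepest cell of each library (adjusted p = 0.688).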

How the results depend on the processing

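The count of genes called higher in interneurons of 2VO 1 was 26, and 7 with DESeq2, 98 with a *Gad* limit of 4 per 10,000, 10 with a limit of 16, 16 without doublets, 3 without the cells richest in other markers, 7 in cells with a *Slc32a1* UMI and 16 without *Hmx3* or *Six3* cells; the last 2 and the removal of the deepest cell were chosen after seeing the data. The count called lower was 0, and 1 with 200 or more genes per cell and 11 with a *Gad* limit of 4. Against *Slc17a7* neurons, 355 higher and 403 lower became 178 and 207 with DESeq2 and 147 and 177 without the library as a block, and leaving out 1 library gave 199 to 359 and 236 to 496. Against immature neurons, 670 lower became 382 with DESeq2 and 381 without the block, and leaving out 1 library gave 493 to 1127 higher and 239 to 724 lower. The 13 differences from *Slc17a7* neurons became 1 with DESeq2. The share of interneurons was 1.25% in 2VO 1 and 0.819% in sham 2 with a *Gad* limit of 4, 0.307% and 0.215% with a limit of 16, and 0.894% in sham 2 with 200 or more genes. The cause of these shifts was not tested. Signs turned for *Npy* (log2 difference −0.36 and −0.17 with a *Gad* limit of 4 and 16, and −0.14 without *Hmx3* or *Six3* cells), *Snap25* (0.11 in cells with a *Slc32a1* UMI), AY036118 (0.032 without the cells richest in other markers) and *Sncb* (0.13 with a limit of 16, 0.091 without the deepest cell). Leaving out a sham library, with no test left, gave −0.00093 to 0.59 for *Npy*, −1.42 to 0.53 for *Lars2*, −2.47 to 0.70 for *Gm42418*, −0.87 to 1.32 for AY036118, −0.12 to 0.036 for *Snap25* and −0.79 to 1.03 for *Sncb*. Of 236 values for 17 genes, 192 kept their sign and side of the threshold, 29 were no longer called, 2 passed it, both for *Npas1*, and 13 turned. Of 210 list medians 25 moved, and that of immediate early genes was −0.63 in cells with a *Slc32a1* UMI and 2.17 without *Hmx3* or *Six3* cells, against 0.35. Thinning moved 12 of 27 shares of cells with a UMI, among them all 3 of *Lamp5*, to 5.26%, 2.27% and 4.17% in 2VO 1, sham 1 and sham 2. No paired analysis was possible because the labels give no pairing of 2VO and sham mice. In 2VO 1 the 73286 interneuron UMIs limit the levels that can be seen, since a sum of 0 allows up to 0.409 UMIs per 10,000.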

Other observations

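In the sham libraries, 5 interneurons carried the homeobox genes *Hmx3* or *Six3*, 2 in sham 1 and 3 in sham 2, and none of 20 in 2VO 1 did. They were deep, with 15350 to 32491 UMIs, and held 13.2% of the interneuron UMIs of sham 1 and 25.5% of those of sham 2. The deepest, in sham 1, was the 1 interneuron marked as a doublet, and it held all *Dlk1* (10) and *Fos* (36) UMIs of the sham 1 cells named here. The 5 cells had all *Dlk1* UMIs (10 and 74) and all *Cited1* UMIs (22 and 38) of the interneurons of sham 1 and sham 2, and 129 of 131 and 131 of 148 UMIs of *Pcp4*. They carried *Slc32a1* (22 and 18 UMIs) and no *Sst*, *Npy* or *Lhx6*. *Nkx2-1* had 0 to 6 UMIs in each of the 5 cells, and *Erbb4* had 0 or 1. Over all interneurons of sham 1 and sham 2, *Erbb4* was at 8.39 and 4.05 per 10,000. The immediate early genes were uneven too, since these cells held 36 of 65 *Fos* UMIs of sham 1 and 147 of 159 of sham 2, and 34 of 48 and 134 of 147 *Jun* UMIs. In interneurons of 2VO 1, *Fos* had 34 UMIs in 10 cells and *Jun* 24 UMIs in 10 cells. Where in the hippocampal dissection these cells came from was not tested.

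*Meis2* was found in 0 of 20 interneurons of 2VO 1, 8 of 45 of sham 1 and 2 of 24 of sham 2. *Reln*, a secreted glycoprotein of several interneuron kinds, was found in 3 of 20 cells of 2VO 1 (13 UMIs), 24 of 45 of sham 1 (107) and 10 of 24 of sham 2 (77), or 1.77, 2.71 and 3.54 UMIs per 10,000.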
